A study of Mus musculus with 4 samples.

Results

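The cytosolic ribosomal proteins are the proteins that, with ribosomal RNA, build the ribosome of the cytoplasm. The genes described here are the protein-coding genes whose symbol is Rpl, Rps or Rplp with a number and an optional letter suffix, or Rpsa, without the Rps6k kinases and the pseudogenes marked -ps. This rule uses names alone and gave 80 of the 55401 genes in the count table, 49 of the large subunit and 31 of the small subunit. Of these, 79 had enough counts to be tested, and Rpl10l, a relative of Rpl10 known from testis, had no count in any library.

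Bone marrow cells with the C57BL/6J background received CRISPR-Cas9 lentivirus on day 1 of culture (multiplicity of infection 30), and macrophages were grown from them over 5 days. The virus was directed at Adcy7, the gene of an adenylyl cyclase, for 2 libraries (called knockout below) and at Rosa, a locus used as a control target, for the other 2 (called control), so virus and nuclease were common to both groups. Poly(A) RNA was sequenced, and all 4 libraries carry the same batch label. The labels name neither separate mice nor separate cultures for the replicates, so each p-value covers only the spread between these libraries, which may be technical.

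A ribosome joins a small subunit, which reads the mRNA, to a large subunit, which forms the peptide bond and leads the new chain out through a tunnel. Cells keep the proteins of both subunits in balance, since each is needed to complete a particle. The mRNAs of nearly all of these genes begin with a run of pyrimidines, the TOP (terminal oligopyrimidine) sequence, through which the kinase mTORC1 and the RNA-binding protein LARP1 control their translation and stability. In growing cells they are among the most abundant mRNAs.

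The libraries held 61782358 to 71914179 counts, and 15832 genes were tested by quasi-likelihood in edgeR, with p-values adjusted over all of them (Benjamini-Hochberg) and a threshold of 0.05. Levels below are CPM, the counts of a gene as a part of the library's total, scaled with edgeR's TMM factors. Adcy7 was at 60.5 and 58.4 CPM in the knockout and 120.1 and 125.6 CPM in the control, so its mRNA was lower but present. All libraries are labelled macrophage, and of 14 macrophage markers 12 were lower in the knockout and Cd14 was higher, where 23.4% of all tested genes were lower. Their summed level was 22607 to 23403 CPM in the knockout, against 57400 to 60565 CPM. Csf1r, the receptor of the macrophage growth factor, was present in all 4 libraries, at 1331 and 1159 CPM in the knockout. C1qa, C1qb, C1qc, Mrc1, Aif1 and Mertk were each at most 0.496 CPM in either knockout library, and from 16.8 to 445 CPM in the controls.

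Most ribosomal protein genes had less mRNA in the knockout. Of the 79 tested, 70 fell and 0 rose, and 9 did not pass, against 23.4% of all tested genes lower and 23.4% higher. Their median log2 fold change, knockout over control, was -0.60, which is 65.8% of the control level, while the median over all tested genes was 0.014. Both knockout libraries lay below both controls for 75 members, as for 37.0% of all tested genes, above both for Rpl3l alone, as for 38.3% of all tested genes, and overlapped the controls for 3. With n = 2 in each group, 46.7% of all tested genes passed in 1 direction or the other, so a call for a single gene was common in this comparison. Most of the falls were moderate, with 5 of at least 2-fold, 36 between 1.5-fold and 2-fold, and 29 smaller than 1.5-fold.

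The members are abundant mRNAs, so they were also set beside genes of like level. Among the 434 tested genes with at least 321 CPM on average, a floor taken from the lower quartile of the members, 194 fell and 149 rose. With the members removed, 140 of the remaining 375 fell and 149 rose, and their median log2 fold change was -0.026. This is a description of the table, since the members were chosen with earlier results known. In bulk samples, fewer cells of a type and less RNA per cell cannot be told apart.

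**Figure D1:**
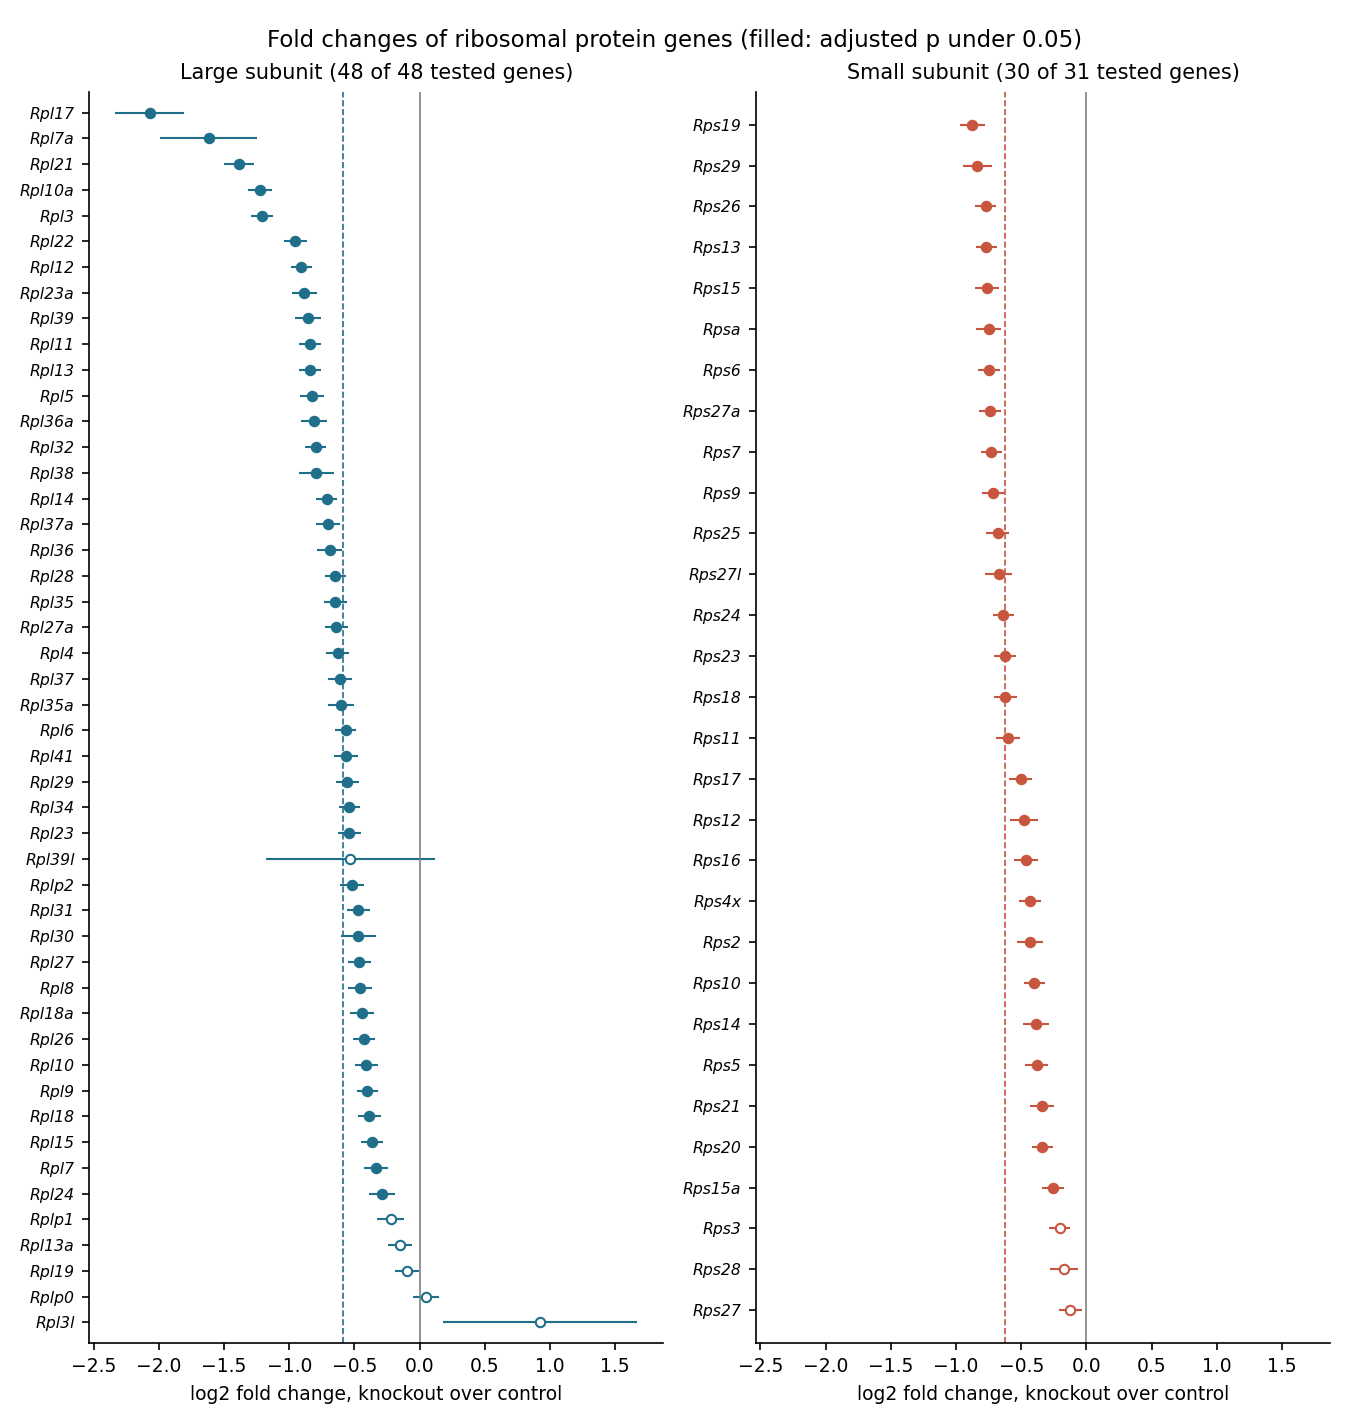
Log2 fold change, knockout over control, of the tested ribosomal protein genes, for the large (left) and small (right) subunit. Drawn are 48 genes of the large subunit and 30 of the 31 of the small subunit. Bars are 1 standard error, calculated from the log2 fold change and the F statistic of the edgeR test. Filled points passed an adjusted p of 0.05, and the dashed line is the median of all tested genes of the subunit (-0.59 and -0.62). All filled points lie left of 0, and Rpl17, Rpl7a, Rpl21, Rpl10a and Rpl3 lie farthest left.

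The subunits moved by nearly the same amount. In the large subunit 42 of 48 tested genes fell, with a median log2 fold change of -0.59 and quartiles of -0.81 and -0.44. In the small subunit 28 of 31 fell, with a median of -0.62 and quartiles of -0.74 and -0.39. Fallen small subunit genes were at 54.6% to 83.7% of the control. The lowest large subunit gene, Rpl17, was at 23.8%, but its log2 fold change of -2.07 became -0.85 when its pseudogene rows were added; Rpl10a and Rpl3, at 42.9% and 43.2%, hardly moved. Of the genes below the joint median, 23 belonged to the large and 16 to the small subunit.

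The summed share of each library's counts gives the same picture in another form. In the knockout, members took 4.03% and 3.91% of the counts, and in the control 5.75% and 5.90%. The groups did not overlap: the mean was 3.97% ± 0.08 (SD, n = 2) in the knockout and 5.83% ± 0.10 (SD, n = 2) in the control, a ratio of 0.681. An exact two-sided permutation test over libraries gave p = 0.333, the smallest that 2 against 2 allows. Counting error was far smaller than these differences, with 95% Wilson intervals reaching at most 0.00563 percentage points to either side of a share, though PCR copies are not independent molecules.

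The large subunit took 2.32% and 2.28% of counts in the knockout and 3.28% and 3.38% in the control, a ratio of 0.691. The small subunit took 1.70% and 1.63% in the knockout and 2.47% and 2.52% in the control, a ratio of 0.668. Both subunits were thus lower in each knockout library than in each control. The log2 ratio of large over small summed counts was 0.45 and 0.48 in the knockout and 0.41 and 0.42 in the control, a difference of 0.049. These values did not overlap either, but the difference is small beside the fall of both subunits, and the exact permutation test over libraries gave its smallest possible p of 0.333.

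**Figure D2:**
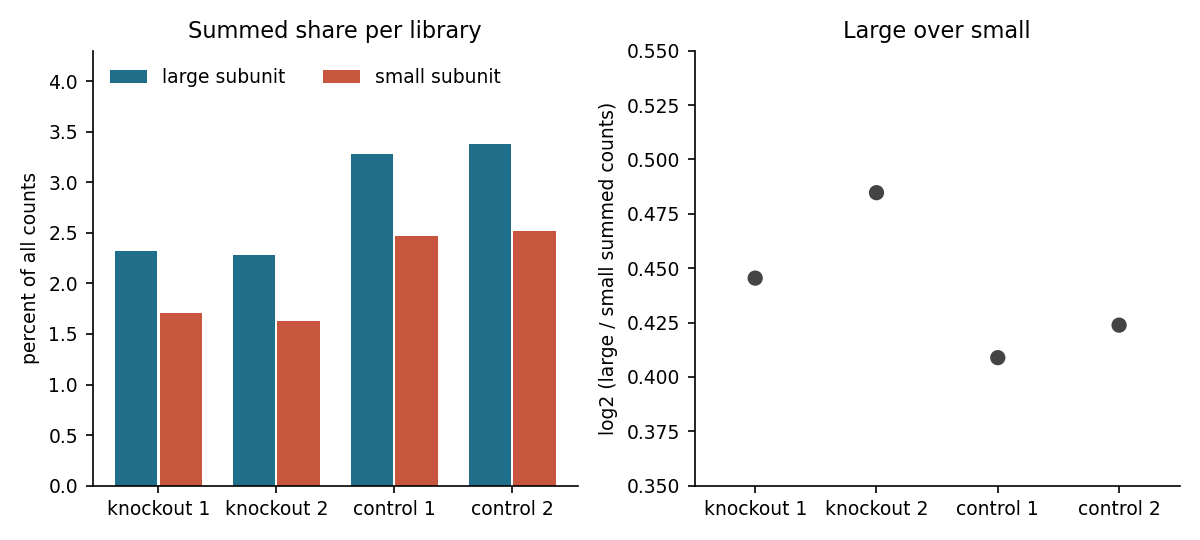
Left, percent of all counts in large and small subunit genes for each library, with bars from 0. Right, the log2 ratio of large over small summed counts for each library, on an axis that does not start at 0. Both subunits are lower in both knockout libraries, and the ratio runs from 0.41 in control 1 to 0.48 in knockout 2.

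Genes of the P stalk, the arm of the large subunit that recruits elongation factors, differed widely among themselves. Rplp0, the base of the stalk, was at 2814 and 2442 CPM in the knockout and 2501 and 2586 CPM in the control. Its groups overlapped, with a log2 fold change of 0.047 ± 0.098 (SE; edgeR adjusted p = 0.726). Rplp1, an acidic stalk protein, was at 962 and 804 CPM against 1005 and 1056 CPM. The Rplp1 groups did not overlap, but the difference did not pass (log2 -0.22, SE 0.10, edgeR adjusted p = 0.114), although it passed without knockout replicate 1 (log2 -0.36). Its partner Rplp2 fell by 0.52 on the log2 scale, from 570 and 595 CPM in the control to 432 and 381 CPM. Rpl12, which lies beside Rplp0 at the stalk's base, went from 713 and 725 CPM to 397 and 371 CPM, a log2 fold change of -0.91 (SE 0.08, edgeR adjusted p = 5.7e-05). Proteins that sit side by side in the ribosome therefore had mRNAs that ranged from 53.3% to 103.3% of the control. The differences among the P stalk genes were not tested.

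The peptidyl transferase centre is where the peptide bond forms. All 5 genes listed for it and the nearby tRNA sites fell, with a median log2 fold change of -0.81. Of all tested members 88.6% fell, so this count does not set the centre apart. Rpl3 (ENSMUSG00000060036), whose protein reaches towards this centre, was at 494 and 489 CPM in the knockout and 1108 and 1167 CPM in the control. The replicates lay close together and the groups far apart, with a log2 fold change of -1.21 (SE 0.08, edgeR adjusted p = 1.12e-05). Rpl10a, which forms the L1 stalk at the tRNA exit, was at 351 and 315 CPM against 748 and 804 CPM, a log2 fold change of -1.22 (SE 0.09, edgeR adjusted p = 2e-05). Rpl10, which joins the large subunit late in its assembly, was at 976 and 922 CPM against 1222 and 1296 CPM. Its fall of 0.41 on the log2 scale passed (SE 0.09, edgeR adjusted p = 0.00493), but not without control replicate 2 (log2 -0.37). The 5 genes listed for the centre and the tRNA sites thus ranged from 42.9% of the control for Rpl10a to 75.3% for Rpl10.

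Rpl5 and Rpl11, which bind 5S ribosomal RNA together and, when free, the p53 regulator Mdm2, moved alike. Rpl5 was at 482 and 536 CPM in the knockout and 868 and 933 CPM in the control, and Rpl11 at 401 and 382 CPM against 697 and 705 CPM. Both had groups far apart, with log2 fold changes of -0.82 and -0.84.

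Around the tunnel through which the new peptide leaves, 7 of 8 listed genes fell, and their median log2 fold change was -0.64. This share, 87.5%, was close to the 88.6% of all tested members. Rpl39, a small protein of the tunnel wall, was at 93.4 and 97.2 CPM in the knockout and 159.7 and 185.7 CPM in the control, for a fitted log2 value of -0.86. Rpl19, which also contributes to a bridge between the subunits, was at 1417 and 1279 CPM against 1421 and 1460 CPM. Its groups lay apart by a margin smaller than the gap between the knockout replicates, and it did not pass (log2 -0.096, SE 0.089, edgeR adjusted p = 0.413). Rpl17, at the tunnel rim, had the lowest fold change of all members and is taken up with its pseudogenes below.

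In the small subunit, 4 of 5 genes listed for mRNA entry and decoding fell, and their median log2 fold change was -0.63. The exception was Rps3, which guides the mRNA at its entry and has known roles outside the ribosome, at 1288 and 1259 CPM in the knockout and 1435 and 1504 CPM in the control. Its groups did not overlap, but the log2 fold change of -0.21 missed the threshold (SE 0.08, edgeR adjusted p = 0.0738) and passed it with DESeq2 (log2 -0.20), without a scaling factor (log2 -0.22) and without knockout replicate 1 (log2 -0.22). Rps15, near the decoding site, went from 902 and 968 CPM to 585 and 518 CPM, a log2 fold change of -0.76. Of 7 genes listed for the mRNA exit and the platform, 6 fell, with a median of -0.73. Over the whole small subunit 90.3% of tested genes fell, so neither count sets its site apart. Rps26, which touches the mRNA just before the start codon, was at 367 and 374 CPM against 623 and 643 CPM, a log2 fold change of -0.77 (SE 0.08, edgeR adjusted p = 0.00011). Rps28, its neighbour, was at 107 and 112 CPM against 111 and 135 CPM, with overlapping groups and a log2 fold change of -0.17 (SE 0.11, edgeR adjusted p = 0.237). These neighbours on the small subunit thus also had different values, but the difference between Rps26 and Rps28 was not tested.

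Among the largest small subunit falls were those of Rps19, Rps29, Rps26 and Rps13. Rps19, the gene most often mutated in Diamond-Blackfan anaemia, an inherited failure of red cell formation, was at 411 and 356 CPM in the knockout and 677 and 728 CPM in the control. The groups did not overlap and the log2 fold change was -0.87 (SE 0.10, edgeR adjusted p = 0.000176). Rps29 was at 76.7 and 82.4 CPM against 128.7 and 155.2 CPM. Rps13 was at 279 and 256 CPM against 453 and 457 CPM. Both fell, and the log2 fold changes were -0.84 and -0.77. Of 19 genes listed for Diamond-Blackfan anaemia 17 fell, with a median of -0.51, a share close to that of the members as a whole. Rps27 and Rps28 were the listed genes that did not pass.

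Several members that did not pass are ones often used to normalise quantitative PCR. Of 6 such genes listed (Rplp0, Rpl13a, Rpl19, Rps18, Rpl32 and Rpl4), 3 fell and 3 did not pass. Rpl13a, a large subunit protein known for a second role in silencing inflammatory mRNAs in monocytes, was at 1175 and 1040 CPM in the knockout and 1218 and 1241 CPM in the control. Its groups did not overlap, and the log2 fold change of -0.15 did not pass (SE 0.09, edgeR adjusted p = 0.213), although it did without knockout replicate 1 (log2 -0.24). Rpl32, in contrast, went from 677 and 684 CPM to 396 and 387 CPM, a log2 fold change of -0.80. Relative to all counts, Rplp0 and Rpl32 thus gave different readings of the same libraries, with a ratio near 1 for the first and 57.6% of the control for the second.

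Levels were also divided by coding length, which leaves out the untranslated parts of the mRNA. For Rpl41 the coding length was 138 bases and the transcript 509, so the order of genes depends on this divisor. An order by transcript length was not made. Per kilobase of coding sequence, the median over 76 members was 874 CPM in the knockout, against 1389 CPM in the control. The most abundant on this scale in both groups was Rpl41, which encodes a very short peptide, at 4888 CPM per kilobase in the knockout and 7233 in the control. Rpsa, Rplp1, Rps14 and Rplp0 came next in the control, at 3509, 3013, 2825 and 2675 CPM per kilobase. In the knockout the order was another, with Rplp0 at 2763, Rplp1 at 2582, Rpl19 at 2292, Rps14 at 2160 and Rpsa at 2087 CPM per kilobase. Rpsa, which binds the small subunit and is also known as the laminin receptor, fell from 3072 and 3138 CPM to 1963 and 1731 CPM, to 59.5% of the control. Rps14, a platform protein, was at 1062 and 895 CPM against 1274 and 1285 CPM. The Rps14 groups lay apart and the fall of 0.39 on the log2 scale passed (SE 0.10, edgeR adjusted p = 0.0138), but it did not pass without either control replicate. Across these 76 members the fold change had little relation to coding length (Pearson r = -0.085, Spearman rho = -0.013) and a weak one to the control level (r = 0.22, rho = 0.19) and to the control level per coding kilobase (r = 0.36, rho = 0.25), a level that is itself part of the fold change. These are correlations across genes of the same 4 libraries, given as a description.

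Replicates of the members lay close together. The median absolute log2 ratio between replicates was 0.10 in the knockout and 0.08 in the control, against 0.20 and 0.14 over all tested genes and 0.13 and 0.07 over the abundant genes. The median fall of 0.60 on the log2 scale was thus several times the typical replicate gap. Small subunit genes were the tighter set in the knockout, at 0.08 against 0.12 for the large subunit, and the values in the control were 0.08 and 0.09. The members also shifted together between replicates: control replicate 2 was the higher for 74 of 79, by a median log2 ratio of 0.080, and knockout replicate 2 the higher for 27 of 79, with a median of -0.073. The abundant genes leaned the same ways, with control replicate 2 the higher for 301 of 434 and knockout replicate 2 for 133. These 434 include members, and 375 of them are other genes.

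Few members had replicates far apart. Leaving out the scarce Rpl3l and Rpl39l, replicates differed by more than 1.2-fold for Rpl7a and Rpl30 in the knockout and for Rpl17, Rpl38, Rps29 and Rps28 in the control. Rpl7a was at 115 and 318 CPM in the knockout, 2.75-fold apart, and at 696 and 632 CPM in the control. Rpl17 was at 83.7 and 78.5 CPM in the knockout, and at 231 and 450 CPM in the control, 1.95-fold apart. Rpl30 was at 149 and 203 CPM against 249 and 239 CPM, and its fall (log2 -0.47, SE 0.14, edgeR adjusted p = 0.0221) did not pass without control replicate 1 (log2 -0.45). Rpl38, a protein known for its part in the translation of Hox mRNAs, was at 55.2 and 63.9 CPM against 91.2 and 115.2 CPM, a log2 fold change of -0.79. In all 4 genes the groups remained apart.

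**Figure D3:**
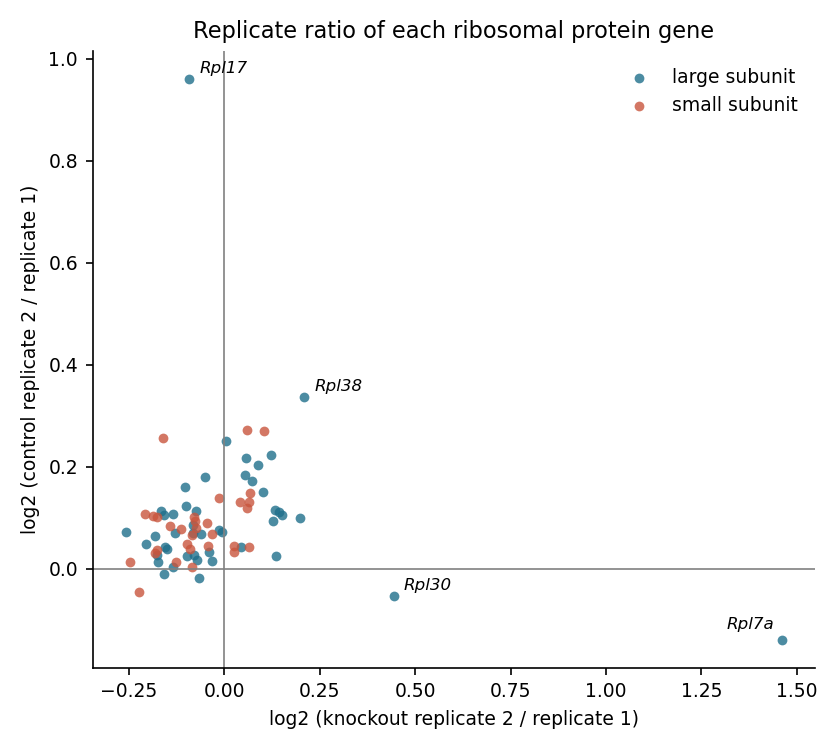
For each ribosomal protein gene other than Rpl3l and Rpl39l, the log2 ratio of replicate 2 over replicate 1 in the knockout (x axis) and in the control (y axis), coloured by subunit. Most points lie within 0.3 of 0 on both axes and above 0 on the y axis, and Rpl7a, Rpl17, Rpl30 and Rpl38 stand apart.

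These genes have many processed pseudogenes, the intronless copies that mRNAs leave in the genome, and a read may match both the gene and a copy. The table holds 299 rows named as -ps copies of ribosomal protein genes, 195 of them with counts, and 52 members had at least 1 such copy with counts. The copies took 0.23% and 0.22% of all counts in the knockout and 0.32% and 0.31% in the control, the same direction as the members. Of 140 copies tested, 49 fell, Rpl7a-ps3 alone rose and 90 did not pass; the median log2 fold change was -0.51.

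For Rpl17 (ENSMUSG00000062328) the -ps rows held 67.7% of the joint counts. Its copy Rpl17-ps10 was at 232 and 252 CPM in the knockout and at 412 and 192 CPM in the control, high in the control library where Rpl17 itself was low. Summed with all of its copies, Rpl17 was at 467 and 470 CPM in the knockout and 812 and 883 CPM in the control. The replicates of the sum were 1.09-fold apart in the control, and the log2 fold change was -0.85 (SE 0.09, edgeR adjusted p = 9.84e-05) in place of -2.07 (SE 0.26, edgeR adjusted p = 0.000337).

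Rpl7a (ENSMUSG00000062647) had the like pattern in the other group. Its copy Rpl7a-ps11 was at 237 and 145 CPM in the knockout, high where Rpl7a was low, and at 198 and 251 CPM in the control. The sum over Rpl7a and its copies was 366 and 474 CPM against 907 and 896 CPM, with a log2 fold change of -1.10 (SE 0.12, edgeR adjusted p = 0.000144) in place of -1.62 (SE 0.37, edgeR adjusted p = 0.00802). The call for the gene's own row did not hold in a robust fit. For Rpl21 the copies held 69.2% of the joint counts, and the log2 fold change moved from -1.38 to -1.04. These were the 3 members that moved by more than 0.1, and the median move over the members was 0.00103. Rpl3 and Rpl10a, with few counts in copies, stayed at least 2-fold lower, as did Rpl7a and Rpl21, and 70 members fell in the fit of the sums. How reads were assigned between a gene and its copies was not tested.

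**Figure D4:**
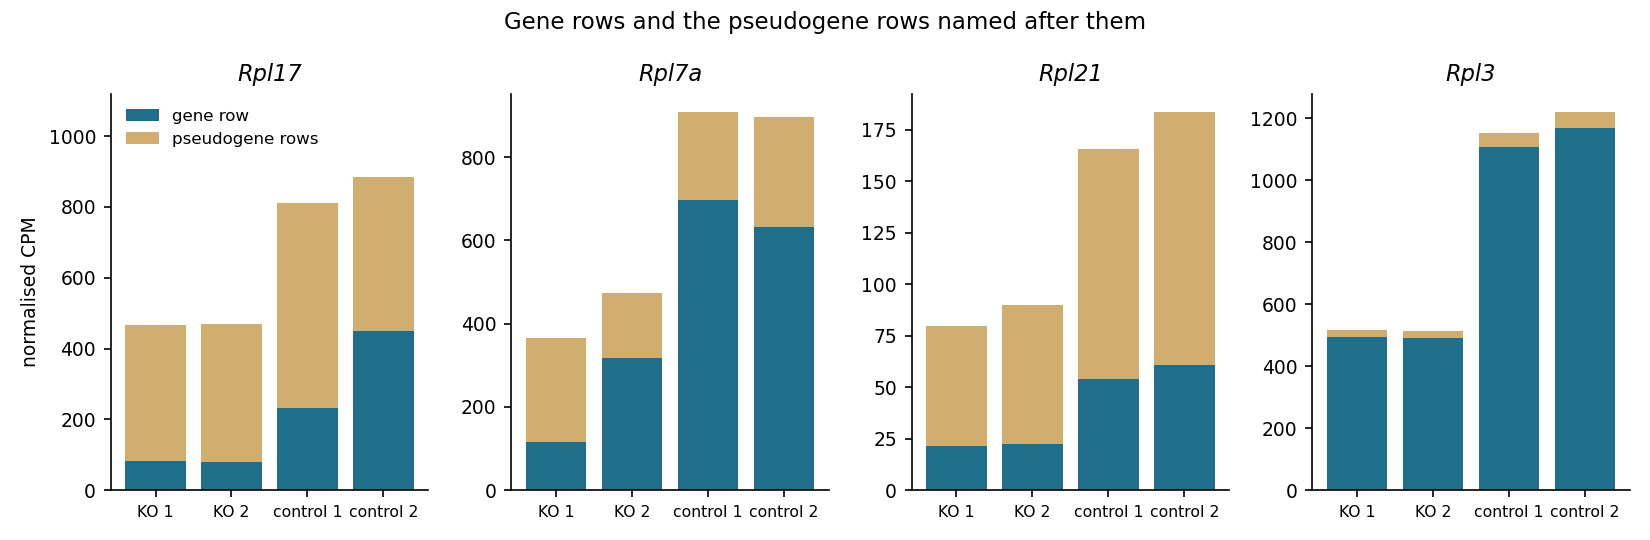
Normalised CPM in each library of the gene's own row (blue) and of all -ps rows named after it (tan), stacked from 0, for Rpl17, Rpl7a, Rpl21 and Rpl3; each panel has its own scale. The division between gene and copies differs between replicates for Rpl17 in the control and Rpl7a in the knockout, while the stacked sums are lower in both knockout libraries for all 4 genes.

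Several members have a relative that can take their place in some tissues, and the pairs did not all move together. Rpl22 and its relative Rpl22l1, which the rule on symbols leaves out, both fell: Rpl22 was at 86.1 and 94.0 CPM against 168.6 and 180.0 CPM (log2 -0.95), and Rpl22l1 at 10.2 and 11.5 CPM against 24.9 and 26.9 CPM (log2 -1.25, SE 0.12). Rps27 was at 153 and 144 CPM against 156 and 167 CPM, groups that lay apart by less than either replicate gap, and did not pass (log2 -0.12, SE 0.09, edgeR adjusted p = 0.276). Rps27l, a relative known as a p53 target, fell by 0.67 on the log2 scale, from 69.4 and 75.4 CPM to 44.5 and 46.4 CPM. The difference between Rps27 and Rps27l was not tested.

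Rpl36a fell by 0.81 and its relative Rpl36al by 0.51 on the log2 scale. Rpl7 fell by 0.34, a call that did not pass without control replicate 2 (log2 -0.26), while its distant relative Rpl7l1 had a log2 fold change of -0.018 that did not pass (edgeR adjusted p = 0.887). Rps4x, the X-linked copy, was at 843 and 800 CPM against 1074 and 1146 CPM and fell by 0.44, a call that did not pass without control replicate 2 (log2 -0.39). Rps4l, annotated as a processed pseudogene and thus outside the members, was at 14.4 and 12.7 CPM in the knockout and 7.48 and 6.58 CPM in the control, and rose (log2 0.95, SE 0.15, edgeR adjusted p = 0.0013). Rpl3l, the form of muscle, was near its detection limit at 0.31 and 0.27 CPM against 0.10 and 0.20 CPM, and Rpl39l, the form of testis, at 0.21 and 0.39 CPM against 0.33 and 0.53 CPM. Neither passed (edgeR adjusted p = 0.344 and 0.542), with standard errors of 0.74 and 0.65 on the log2 scale. For Rpl10l, a floor of 3 counts amounts to at most 0.0486 CPM in any library.

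Genes of the ribosome that the rule on symbols leaves out gave like values. Rps3a1, a small subunit protein, fell by 0.68 on the log2 scale, Rack1, the scaffold on the head of the small subunit, by 0.44, and Fau, whose product yields a small subunit protein, by 0.42.

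The sequence around the start of transcription was read for the members, since the TOP sequence is a feature they are known to share. RefSeq windows of 300 bases (build GRCm38.p6, 250 before and 50 after the start) were at hand for 60 of the 80, 37 large and 23 small. A run of at least 8 bases of only C and T within 20 bases of the start was present in 48.3% of these, against 18.4% of 27025 genes with a window. Such a run may lie before the annotated start, outside the mRNA. Its presence or absence therefore does not show whether a gene has a TOP sequence. The windows below run from 40 bases before to 20 bases after the annotated start, 5′ to 3′ on the strand of the gene, with the longest C and T run near the start in capitals. The first 3 are members that fell and the last 4 are members that did not pass, and some of each kind hold such a run.
Rpl7a (chr2:26910767-26910826, plus strand): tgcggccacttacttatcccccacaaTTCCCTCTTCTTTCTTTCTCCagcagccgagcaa
Rpl12 (chr2:32961672-32961731, plus strand): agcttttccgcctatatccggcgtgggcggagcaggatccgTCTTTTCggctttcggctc
Rps26 (chr10:128626487-128626546, minus strand): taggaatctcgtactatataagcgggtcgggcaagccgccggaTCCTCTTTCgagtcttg
Rpl13a (chr7:45128726-45128785, minus strand): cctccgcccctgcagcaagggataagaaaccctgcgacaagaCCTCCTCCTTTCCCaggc
Rps27 (chr3:90213629-90213688, minus strand): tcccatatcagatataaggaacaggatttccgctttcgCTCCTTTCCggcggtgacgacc
Rplp0 (chr5:115559427-115559486, plus strand): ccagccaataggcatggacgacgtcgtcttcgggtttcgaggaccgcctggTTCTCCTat
Rps3 (chr7:99483690-99483749, minus strand): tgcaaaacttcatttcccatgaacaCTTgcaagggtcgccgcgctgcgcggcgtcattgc

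The run was 21 bases in Rpl7a, 7 in Rpl12, 9 in Rps26, 14 in Rpl13a, 9 in Rps27, 7 in Rplp0 and 3 in Rps3. Rpl7a and Rps26, which fell, and Rpl13a and Rps27, which did not pass, thus held a run of at least 8. Rpl12, Rplp0 and Rps3 did not. The windows of Rpl39, Rps13 and Rps15, which fell, and of Rps28, which did not pass, were also read but are not printed. Their runs were 8, 6, 7 and 4 bases. The median log2 fold change was -0.64 for matched members with a run of at least 8 and -0.55 for those without. The motif CGGAAG, the core bound by ETS factors such as GABP, was present on either strand of the 300 bases in 68.3% of matched members and 18.8% of all genes. CACGTG, the E-box bound by Myc, was in 10% against 8.09%, AAGATGGC, a form of the YY1 motif, in 8.33% against 3.19%, and TATAAA in 10% against 15.7%. CGGAAG and AAGATGGC share the letters AAG and can overlap, and CGGAAG on the other strand can overlap a C and T run. A match describes the sequence, not a bound site. The median log2 fold change was -0.57 for members with CGGAAG and -0.63 for those without, -0.54 and -0.62 for CACGTG (6 members with it), and -0.62 and -0.61 for TATAAA (6 members). For AAGATGGC it was -0.26 for the 5 members with the motif (Rpl22, Rpl35a, Rpl13a, Rps15a and Rps27, from -0.95 to -0.12) and -0.62 for those without.

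Other genes whose mRNAs begin with a TOP sequence gave values close to those of the members. Of 17 such genes outside the ribosome 16 fell and Pabpc1 did not pass (log2 -0.18, edgeR adjusted p = 0.104), with a median log2 fold change of -0.57. Nap1l1, a histone chaperone, fell by 1.04 on the log2 scale, Eef1b2, an exchange factor of elongation, by 0.98, and the initiation factor genes Eif3f and Eif4b by 0.79 and 0.77.

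Initiation factors outside the TOP list did not share the direction as a set. Among 25 genes, 9 rose and 5 fell while 11 did not pass, and the median log2 fold change was 0.17. Eif6, which keeps the free large subunit from joining the small one, was at 233 and 203 CPM in the knockout and 96.3 and 98.9 CPM in the control, for a fitted log2 value of 1.16 (SE 0.10). Eif5, Eif1 and Eif3c rose by 1.10, 0.55 and 0.48 on the log2 scale, and the lowest value in the list was -0.60.

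The list of mTORC1, its regulators and its targets was mixed, with 4 of 19 tested genes lower, 6 higher and 9 that did not pass. The lower share, 21.1%, was near the 23.4% of all tested genes. Eif4ebp1, a repressor of cap-dependent translation, was at 244 and 212 CPM in the knockout and 94.0 and 101.3 CPM in the control (log2 1.22), while its relative Eif4ebp2 fell by 0.67. Ddit4, an inhibitor of mTORC1 induced by stress, was at 115.4 and 115.3 CPM against 30.5 and 28.3 CPM (log2 1.97). Sesn1, another inhibitor, was at 4.76 and 7.15 CPM against 64.0 and 62.3 CPM (log2 -3.41). The levels are of mRNA, and no activity of the pathway was measured.

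Of 9 transcription factors known to bind ribosomal protein genes, 2 fell, 1 rose and 6 did not pass. The share that fell was 22.2%, against 23.4% of all tested genes. Myc, an activator of ribosome production, was at 13.6 and 15.4 CPM in the knockout and 35 and 31.3 CPM in the control (log2 -1.19, SE 0.12). Yy1 fell by 0.36 on the log2 scale and Zbtb7a rose by 0.43.

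Mitochondrial ribosomal proteins, which build the separate ribosome of mitochondria, were mixed. Of 78 tested, 53 did not pass, 18 fell and 7 rose, and the median log2 fold change was -0.088. Mrpl33, Mrps9 and Mrpl18 fell by 0.89, 0.85 and 0.84, and Mrpl20 rose by 0.83. Of the 13 mRNAs encoded by mitochondrial DNA 0 fell, 5 rose and 8 did not pass, with mt-Nd4l, mt-Nd4, mt-Cytb and mt-Nd5 higher by 1.03, 0.80, 0.80 and 0.51. Mitochondrially encoded genes took 3.49% and 4.20% of counts in the knockout and 3.38% and 3.79% in the control, with overlapping groups.

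**Figure D5:**
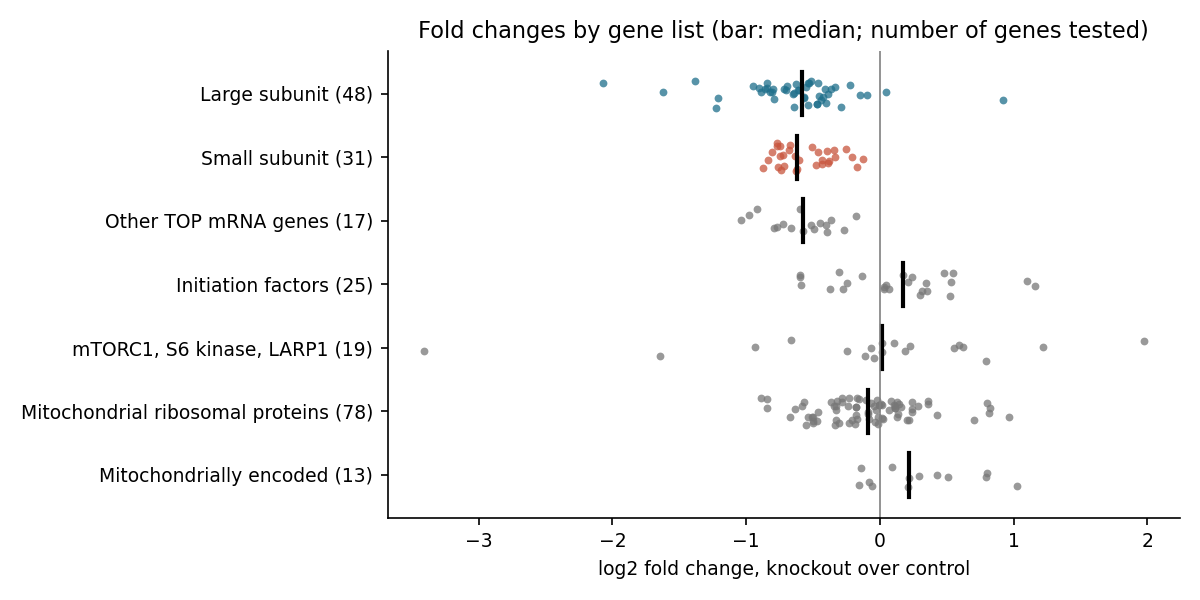
Log2 fold change, knockout over control, of each tested gene by list, with points spread vertically for legibility and a black bar at the median; numbers of genes tested are in brackets. The medians of both subunits (-0.59 and -0.62) and of the other TOP mRNA genes (-0.57) lie close together, and those of the initiation factors (0.17) and mitochondrial ribosomal proteins (-0.088) lie nearer to 0.

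Markers of other cell types moved between the same groups as the ribosomal protein genes. For comparison, 23.4% of all tested genes were higher and 23.4% lower. The summed level of the eosinophil list was 220 to 286 CPM in the knockout and 31.1 to 33.4 CPM in the control, with 6 of 7 tested genes higher. The mast cell and basophil list, with 7 of 8 higher, was at 113 to 122 CPM against 28.4 to 36.9 CPM, and the platelet and megakaryocyte list, with 11 of 12 higher, at 426 to 496 CPM against 202 to 215 CPM. Neutrophil markers were at 6056 to 7529 CPM against 6274 to 7386 CPM, with 4 of 10 lower and 1 higher. B cell markers were at 135 to 138 CPM against 163 to 166 CPM, with 2 of 8 lower and 6 higher. T cell, erythroid and stromal lists summed to 43.2, 12.8 to 17.1 and 45.0 to 50.0 CPM in the knockout and to at most 2.99 CPM in the control, with 2 of 4, 3 of 4 and 3 of 6 tested genes higher. Cma1, Igll1 and Slc4a1 were at 0 in all 4 libraries, and Il5ra, Ear6, Fcer1a, Trac and Lum were among the markers at 0 in both controls. The part of these cells in the lower ribosomal protein mRNA was not tested.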

How the data were processed

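The deposited table holds estimated counts per Ensembl gene for 4 libraries of mouse bone marrow-derived macrophages. Per the submitters' processing notes, the authors used fastp, HISAT2, StringTie and edgeR with build GRCm39; the sources used here give no versions or settings. The values were whole, so no rounding was needed. The labels do not name a stranded kit, so overlapping or antisense genes cannot be told apart. Symbols, gene types and coding lengths came from GENCODE vM21 (55141 of 55401 genes matched), whose build differs, so no gene coordinates were taken from it.

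Counts were tested with edgeR 4.0.16 (filterByExpr, TMM, quasi-likelihood test, group as the only term; Benjamini-Hochberg over 15832 genes). Alternatives covered scaling, the low-count filter, DESeq2 1.42.0, a replicate block, counts divided by 4, each library left out, and the choice of members; a robust fit and the sum with pseudogene rows were added after the data were seen. The script was tested on simulated data in which every gene had the same dispersion (0.0238). It recovered 9.84% of 1.5-fold, 59.4% of 2-fold and 97.0% of 4-fold changes, and called 0.0394% of unchanged genes. The fit of the real counts did not hold all genes to the same dispersion, so these rates do not carry over to the members. Standard errors were calculated as the absolute log2 fold change divided by the square root of the F statistic of the edgeR test. Intervals and floors take each count as 1 fragment, which was not tested. The members and lists were chosen with earlier results of these data known, and the groups by role after values were seen. Members named were the 5 largest falls and 3 least negative per subunit, the 5 most abundant per coding length, the 6 with widest replicates, all that did not pass or were not tested, and tissue-restricted relatives; other genes were the up to 4 with the smallest adjusted p per list. Rpl4, Rpl5, Rpl11, Rpl12, Rpl32, Rpl35a, Rplp2, Rps15, Rps15a, Rps18, Pabpc1 and Adcy7, macrophage markers and the pseudogene rows were named outside this rule, after their values were seen. Values of a few single genes are not reported here.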

Additional observations from a re-analysis of the deposited data

How the results depend on the processing

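Of 70 falls among the members, 53 held under every alternative run. The number of members that fell was 68 to 71 under other scalings, no filter, DESeq2, counts divided by 4 and summed pseudogene rows, and 55 (without control replicate 2) to 72 (without knockout replicate 1) when a library was left out, where the lone library is assumed to vary like the other group. No member rose under any of these. The large subunit median was -0.56 with upper quartile scaling, -0.61 without members of restricted expression, and -0.66 to -0.52 when a library was left out; the small subunit median was -0.66 to -0.54. Rplp0 ranged from -0.060 (without knockout replicate 1) to 0.16 (without knockout replicate 2). The cause was not tested. Calls for 15 members ended without control replicate 2, and that of Rpl7a with the robust fit. Over all genes, 5849 to 7505 passed.

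With the replicate number as a block, 70 members fell, with medians of -0.58 and -0.62. Same-numbered libraries did not deviate together (r = 0.015 across genes), so the numbers are not shown to pair them. Having 2 libraries per group limits every value.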
